A study of Mus musculus with 6 samples.

Results

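Cyp2a5 and 9 further Cyp2 genes of one cluster on mouse chromosome 7 were followed in RNA-seq of MLL-AF9 leukemia cells recovered from recipient mice. They are 10 of the 55487 genes in the table and were taken by name: Cyp2a5, Cyp2a4, Cyp2a12, Cyp2a22, Cyp2g1, Cyp2b10, Cyp2b19, Cyp2f2, Cyp2t4 and Cyp2s1. They were chosen by their normalized counts in these same 6 libraries and by their place in the cluster, so the contrast between the groups is described for them and not tested. All 6 libraries came from GFP+ cells of the bone marrow of femora and tibiae of C57BL/6 recipients, CD45.1(+) CD45.2(-), that carried CD45.2(+) donor cells with the Mx1-Cre transgene, floxed Brd9 alleles (Brd9fl/fl) and MA9, the MLL-AF9 fusion oncogene. Both groups shared this donor genotype. From the day after transplantation, recipients had 3 injections on alternate days of PBS (3 samples) or of pIpC at 20 mg/kg (3 samples), and cells were taken 10 days after injection. pIpC imitates double-stranded RNA and raises interferon, which switches on Cre through the interferon-responsive Mx1 promoter, so effects of interferon and of Cre cannot be told apart in this design. The labels do not say whether the 3 samples of a group came from separate animals, so p-values measure the spread between these samples only.

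Cytochrome P450 enzymes are heme proteins that oxidise small lipophilic molecules, with electrons passed to them by P450 reductase. Family 2 is large in the mouse and includes many liver enzymes that handle drugs and other foreign compounds. Cyp2a5 is the mouse coumarin hydroxylase and also oxidises nicotine. It is known as an enzyme of the liver and the olfactory mucosa, and its transcription in liver is known to depend on factors such as HNF4A and, after stress, NRF2. Bone marrow is not a tissue for which it is usually described.

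The libraries held 19277439 to 22378154 reads on genes in the PBS group and 22348517 to 23586722 in the pIpC group. Brd9, the floxed gene, had 1927, 1946 and 1632 normalized counts in the PBS libraries and 2036, 2263 and 2011 in the pIpC libraries (log2 fold change 0.20 ± 0.13 SE, limma adjusted p = 0.259). Over the whole gene it did not fall in libraries labelled pIpC, so this count does not bear out that label. The counts do not separate the floxed exons and so cannot decide whether these were lost. PBS replicate 3 stood apart from the other PBS libraries: counts differed by a mean chi-square per gene of 6.83 between PBS replicates 1 and 2, and of 191 and 216 between replicate 3 and each of them. Between pairs of pIpC libraries the value was 8.67 to 18.5. No pair of libraries of one group fell near the sampling noise. A level below is a normalized count, that is, reads divided by one size factor per library, in which 1 read was worth 0.865 to 1.13.

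Cyp2a5 (ENSMUSG00000005547) lies on the plus strand at chr7:26835305-26843548 of GRCm38, and Cyp2a4 (ENSMUSG00000074254), a steroid hydroxylase gene, at chr7:26307169-26315088 on the same strand. Their sequences are shown first because reads of the pair can be told apart only where these differ. RefSeq promoter windows, 250 bases before to 50 after the start on GRCm38.p6, existed for 9 of the 10 genes. The windows of Cyp2a5 (chr7:26835089-26835388, plus strand) and Cyp2a4 (chr7:26306942-26307241, plus strand) were identical at 294 of 299 aligned bases, and capitals mark the 5 that differ.
Cyp2a5: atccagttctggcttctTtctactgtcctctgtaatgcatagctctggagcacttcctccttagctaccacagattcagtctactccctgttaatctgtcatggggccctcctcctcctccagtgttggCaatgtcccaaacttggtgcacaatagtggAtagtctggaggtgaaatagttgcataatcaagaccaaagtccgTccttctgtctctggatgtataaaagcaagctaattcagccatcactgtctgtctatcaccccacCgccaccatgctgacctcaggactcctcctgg
Cyp2a4: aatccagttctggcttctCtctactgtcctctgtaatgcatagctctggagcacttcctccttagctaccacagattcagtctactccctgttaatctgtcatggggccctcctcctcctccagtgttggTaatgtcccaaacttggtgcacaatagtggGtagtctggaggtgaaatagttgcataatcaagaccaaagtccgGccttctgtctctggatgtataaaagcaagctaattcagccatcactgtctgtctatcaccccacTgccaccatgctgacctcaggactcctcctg

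These windows were searched on both strands for motifs of factors known at drug-metabolizing genes, chosen with the Cyp2a5 window in view. The TATA box TATAAA was in the windows of Cyp2a5, Cyp2a4, Cyp2a12 and Cyp2a22, and in 13.6% of the 32851 promoter windows of the same length. The HNF4-type element CAAAGTCC was in those of Cyp2a5 and Cyp2a4 alone among the 9, against 1.42% of all windows. The C/EBP-type motif TTGCNNAA was in Cyp2a5, Cyp2a4, Cyp2b10 and Cyp2b19, against 10.8%. The NF-I element TTGGC was in 6 of the 9 windows (Cyp2a5, Cyp2a12, Cyp2a22, Cyp2b10, Cyp2b19 and Cyp2t4), against 46.7% of all. It was not in that of Cyp2a4, since the second of the 5 differing bases is its last letter. The antioxidant response core TGACNNNGC was in none of the 9 windows, against 12.4% of all, and the AhR core GCGTG in that of Cyp2b10 only, against 32.4%. A match or its absence describes these letters in this window and nothing of a factor's binding. The motifs do not overlap one another in the Cyp2a5 window.

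Along the spliced transcripts of GENCODE M21, Cyp2a4 matched Cyp2a5 at 1708 of 1738 aligned bases (98.3%). Of the 1482 coding bases of Cyp2a5, 23 differed. The 100 coding bases with the most differences are shown, bases 629 to 728 of the Cyp2a5 transcript and 619 to 718 of that of Cyp2a4, across the junction of exons 4 and 5 in both (from 26837167 to 26838882 and from 26309004 to 26310720 on chromosome 7, plus strand), with the 5 differing bases in capitals.
Cyp2a5: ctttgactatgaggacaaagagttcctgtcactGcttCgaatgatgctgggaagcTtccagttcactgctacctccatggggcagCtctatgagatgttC
Cyp2a4: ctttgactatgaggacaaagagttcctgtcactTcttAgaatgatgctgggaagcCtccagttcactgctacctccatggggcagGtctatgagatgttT

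The longest run of bases that the transcripts of Cyp2a5 and Cyp2a4 share without a difference was 216 bases. Of the 1914 windows of 100 bases in the Cyp2a5 transcript, 183 (9.56%) also occurred in Cyp2a4 and 138 (7.21%) in Cyp2a21-ps, an unprocessed pseudogene of the cluster that is not one of the 10 genes. In a search of 141767 transcripts, no gene other than these had any 100-base window of Cyp2a5. The other 8 genes matched Cyp2a5 at 62.6% (Cyp2t4) to 75.8% (Cyp2a12) of aligned bases. Counts of Cyp2a4 and Cyp2a21-ps are therefore uncertain, since reads from Cyp2a5 with few or no differences could have been assigned to them.

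Cyp2a5 was abundant in the PBS libraries and had no read in any library labelled pIpC. Its normalized counts were 4135, 2676 and 7838 in PBS replicates 1, 2 and 3 (4779, 2644 and 6926 reads), and 0 in the 3 pIpC libraries, of 69183750 reads on genes in all. Every PBS library was far above every pIpC library, and PBS replicate 3 was the highest. The PBS mean was 4883 ± 2661 (SD, n = 3). With 3 reads per library taken as the limit that a count of 0 allows (2.90 to 3.07 normalized counts, counting error only), Cyp2a5 was at least 1635-fold lower in the pIpC libraries. Without PBS replicate 3 the PBS mean was 3406 and the bound 1140-fold. Fewer cells that express a gene and less RNA per cell cannot be told apart in bulk RNA.

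In the PBS libraries Cyp2a5 ranked at place 714 by normalized count among the 24374 genes with a read there, and at place 419 per exon length. It also varied more between PBS libraries than most genes of such levels. Its coefficient of variation was 54.5%, against a median of 21.8% over the 4517 genes with a PBS mean of at least 1000, and 6.33% of those varied as much or more. The highest PBS library had 2.93 times the normalized count of the lowest. PBS replicate 3 was the highest PBS library for 49.8% of those 4517 genes.

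Cyp2a4 followed the same order of libraries at a much lower level. Its normalized counts were 225.0, 166.0 and 526.2 in PBS replicates 1 to 3 and 0 in all 3 pIpC libraries, so that it was at least 102-fold lower there (65.4-fold without PBS replicate 3). Its reads were 5.44%, 6.20% and 6.71% of those of Cyp2a5 in the same library. A nearly fixed share in each PBS library is what the values show, and whether those reads came from Cyp2a4 was not tested. Summed, which does not depend on how reads were divided between the pair, the genes had 4360, 2842 and 8364 normalized counts in the PBS libraries and 0 in the pIpC libraries.

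**Figure D1:**
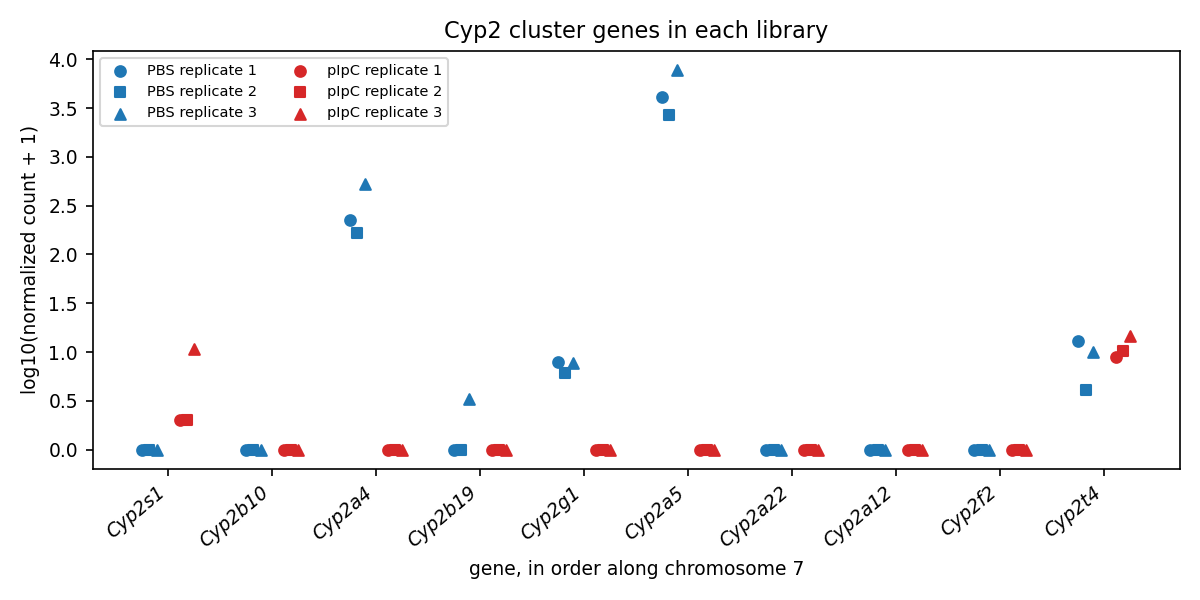
Normalized counts of the 10 Cyp2 genes in each library, as log10(normalized count + 1) on the vertical axis, with genes in their order along chromosome 7, PBS in blue and pIpC in red, and a marker shape per replicate. Cyp2a5 and Cyp2a4 stand high in all 3 PBS libraries and at 0 in all 3 pIpC libraries, while Cyp2t4 overlaps between the groups.

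Cyp2g1, the gene of a P450 of the olfactory mucosa, lies 14099 bases before Cyp2a5 and was at the edge of detection in the PBS libraries. It had 8, 5 and 6 reads in PBS replicates 1 to 3 (6.92, 5.06 and 6.79 normalized counts) and none in the pIpC libraries, which makes it at least 2.10-fold lower there. Its transcript had no run of more than 21 bases in common with Cyp2a5. Of the Cyp2b genes, Cyp2b19, a keratinocyte P450, had 2 reads in PBS replicate 3 and none elsewhere, and Cyp2b10, the liver gene induced by phenobarbital through CAR, had none in any library.

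Cyp2a12, a steroid hydroxylase gene of the liver, Cyp2a22 and Cyp2f2, the naphthalene-oxidizing enzyme of airway club cells, also had no read in any of the 6 libraries. With Cyp2b10 these made 4 of the 10 genes without a read. Of all 55487 genes in the table, 24374 had a read in any PBS library. That background covers the PBS libraries only, in which Cyp2s1 also had no read. The share of all genes without a read in all 6 libraries is not given, so the 4 cannot be set against it. A count of 0 allows up to 3 reads, 2.60 to 3.39 normalized counts, per library. Cyp2a12 and Cyp2a22 lie on the far side of Cyp2a5 from Cyp2g1, at 194 and 96.3 kb from the Cyp2a5 start, and their transcripts resemble Cyp2a5 the most after Cyp2a4 among the 10.

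The genes at the ends of the cluster did not share the pattern. Cyp2t4, a little studied member of the family, had 12.1, 3.04 and 9.05 normalized counts in PBS and 7.98, 9.20 and 13.5 in the pIpC libraries, and the groups overlapped. Its last 11 bases overlap Egln2 on the annotation, and without strand in the libraries, as the labels describe them, reads of the overlap cannot be told apart. Cyp2s1, a P450 of epithelia outside the liver that AhR is known to induce, was the only one of the 10 with reads in pIpC libraries alone: 1, 1 and 10 reads in pIpC replicates 1 to 3 (0.998, 1.02 and 9.67 normalized counts) and 0 in PBS. Most of them were in pIpC replicate 3.

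Per kb of exon, the order of the mean levels in PBS was Cyp2a5 (2356 normalized counts per kb), Cyp2a4 (176), Cyp2t4 (4.89), Cyp2g1 (2.92) and Cyp2b19 (0.181), followed by the 5 genes at 0. Cyp2t4 and Cyp2g1 overlapped in range, and Cyp2b19, placed by 2 reads in 1 library, overlapped the genes at 0. In the pIpC libraries the order was Cyp2t4 (6.21 per kb) and Cyp2s1 (0.789), with the other 8 at 0. Cyp2a5 held 93.5% to 94.4% of all reads on the 10 genes in each PBS library. Of the 10, Cyp2a5 and Cyp2a4 alone reached the mean of 10 normalized counts required for testing, which they did through the PBS libraries only.

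**Figure D2:**
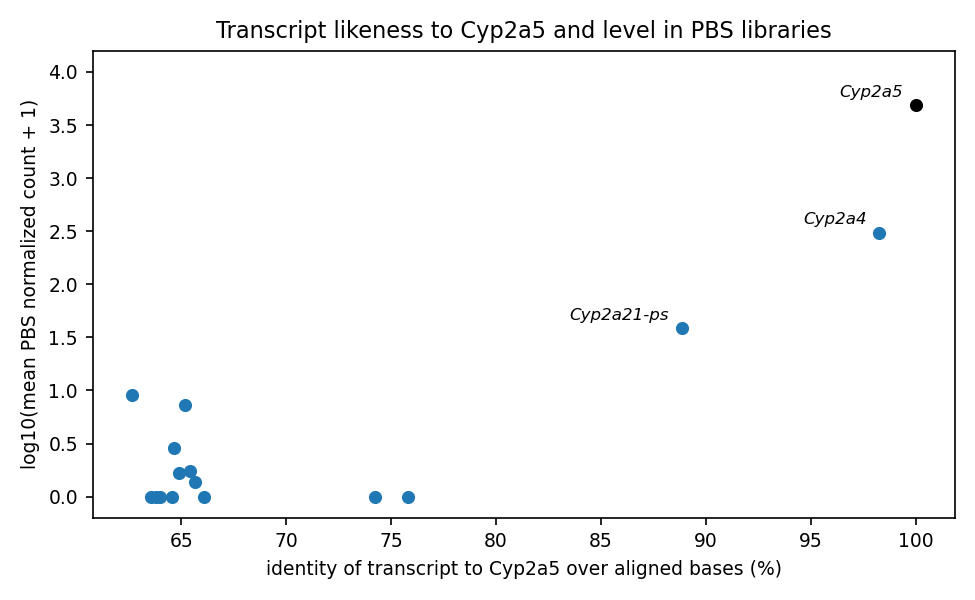
Mean PBS normalized count of the Cyp2 genes and Cyp2 pseudogenes of the cluster, as log10(mean + 1) on the vertical axis, against the identity of their longest transcript to that of Cyp2a5 in percent of aligned bases; each point is one gene. Cyp2a4 at 98.3% and Cyp2a21-ps at 88.9% were the highest after Cyp2a5, and all genes under 80% had means below 10.

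The remaining Cyp2 genes and pseudogenes between the outermost of the 10 were low or silent apart from Cyp2a21-ps. This pseudogene, 82.1 kb after the Cyp2a5 start, had 16.4, 20.2 and 75.8 normalized counts in PBS and 0 in the pIpC libraries, at least 12.6-fold lower (6.14-fold without PBS replicate 3). Like Cyp2a5 and Cyp2a4, it reached the filter through the PBS libraries only, so its call among the flanking genes is no support. Its reads were 0.398%, 0.756% and 0.967% of those of Cyp2a5, and this share was not constant between libraries. Cyp2b9 had 3, 3 and 0 reads in PBS and 2, 0 and 0 in the pIpC libraries, and Cyp2b13 1 read in PBS replicate 3.

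To see whether genes around the cluster moved with Cyp2a5, all 92 annotated genes within the span of the 10 or up to 500 kb to either side were taken by position. Of these, 34 had no read in any library and 37 were tested. In the pIpC libraries 6 were higher and 13 lower at a limma adjusted p under 0.1, which is 51.4% of those tested, against 45.3% of all 15020 genes tested (25.0% higher and 20.4% lower). The median log2 fold change was -0.17, against 0.01 over all genes. Genes that were lower made up 35.1% of those tested in this window. The share depended on the window: within 250 kb, 2 of 22 tested genes were higher and 13 lower (68.2% changed, 59.1% lower), and within 1 Mb, 9 of 64 were higher and 16 lower (39.1% changed, 25.0% lower). Without Cyp2a21-ps, 6 of 36 were higher and 12 lower. The count of 19 fell to 12, 11 and 12 when pIpC replicate 1, 2 or 3 was left out, and was 24 without PBS replicate 3.

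Within the span itself, 27 of the 35 other genes had no read in any library and 3 could be tested, of which 2 were lower, Cyp2a21-ps and the processed pseudogene Gm4613 (27.7, 35.4 and 102 normalized counts in PBS against 11.0, 10.2 and 22.2). Without PBS replicate 3 the PBS mean of Gm4613 was 31.6 instead of 55.0. The nearest tested gene before Cyp2a5 was Rnf170-ps, a processed pseudogene 763 kb away, with 36.3, 27.3 and 22.6 normalized counts in PBS and 20.0, 36.8 and 21.3 in the pIpC libraries (limma adjusted p = 0.736), and the nearest after it was Cyp2a21-ps. Past the Cyp2t4 end, Egln2, an oxygen-sensing prolyl hydroxylase, had a log2 fold change of -0.25 ± 0.22 SE and did not pass (limma adjusted p = 0.403). Few other genes of this stretch had reads in these cells. Genes without reads are also common elsewhere: of the 55487 genes in the table, 24374 had a read in any PBS library. Counted in the PBS libraries alone, 27 of the 35 genes of the span likewise had no read.

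Apart from Cyp2a21-ps, the flanking genes with the highest and lowest log2 fold changes lay beyond the Cyp2s1 end. Axl, a receptor kinase of macrophages and other phagocytes, rose from 25.1, 54.7 and 14.7 normalized counts to 683, 490 and 835 (log2 fold change 4.53 ± 0.47 SE, limma adjusted p = 0.000463). Ceacam1, an adhesion molecule, rose by 1.35 ± 0.25 SE on the log2 scale. B3gnt8, a glycosyltransferase, fell by 2.86 on that scale, from 2439 ± 941 to 322 ± 28.8 (SD, n = 3 each). Genes that rose and genes that fell lay beside each other there.

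**Figure D3:**
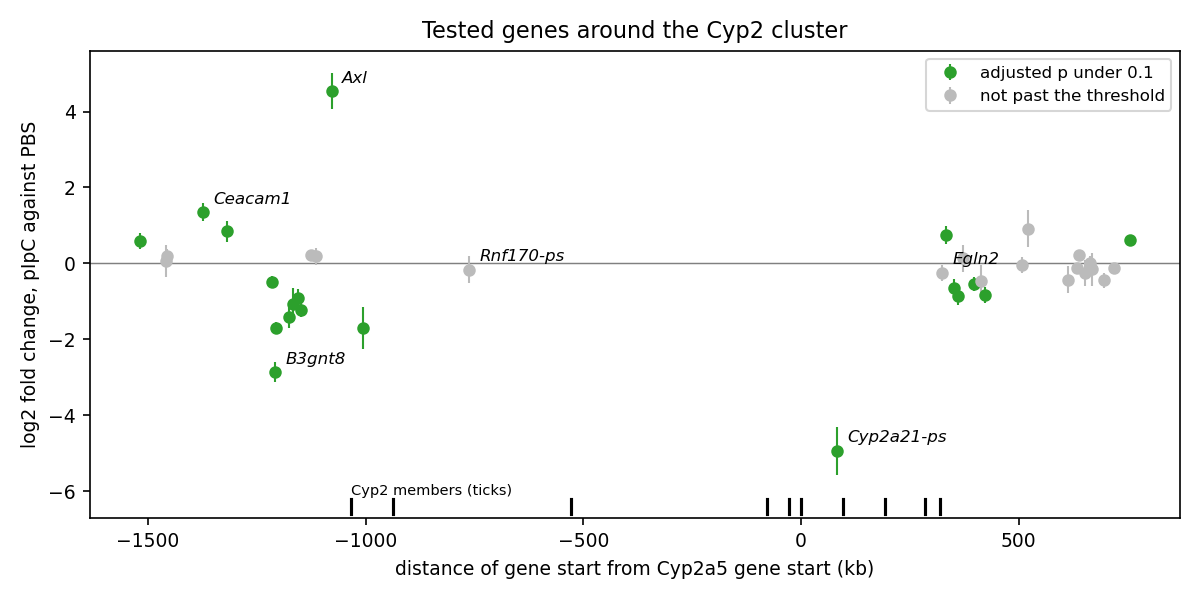
Log2 fold change of the 37 tested flanking genes, pIpC against PBS, with the standard error as bars, against the distance of the gene start from that of Cyp2a5 in kb; green points passed the threshold and grey points did not, and black ticks mark the 10 Cyp2 genes. Of the points 6 are green above 0 and 13 green below it, with Axl the highest and Cyp2a21-ps the lowest.

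Cytochrome P450 genes outside the 10 changed in both directions. Of 91 such genes, 51 had no read in any library and 17 were tested, of which 6 were higher and 8 lower in the pIpC libraries (82.4%, against 45.3% of all genes). Their median log2 fold change was -0.26. Of the 17, Cyp11a1, Cyp2j9 and Cyp2u1 had at most 3 reads in each library of one group and passed the filter through the other, and without them 4 of 14 were higher and 7 lower (78.6%). Among the 39 other Cyp2 genes, 29 were without a read and 5 were tested: Cyp2j9 and Cyp2j6, of the same subfamily, rose, Cyp2u1, a fatty acid hydroxylase, and Cyp2ab1 fell, and Cyp2d22 did not pass. None of these 5 came near the Cyp2a5 level.

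Cyp2j9 had 0.865, 0 and 0 normalized counts in PBS (1 read in all) and 42.9, 33.7 and 36.7 in the pIpC libraries, and Cyp2j6 had 4.33, 1.01 and 3.39 against 77.8, 60.3 and 50.3. Cyp2u1 had 30.3, 34.4 and 48.7 against 0.998, 1.02 and 2.90, and Cyp2ab1 22.5, 18.2 and 15.8 against 7.98, 8.17 and 4.83. In each of the 4 the groups did not overlap, which held with pIpC below PBS for 26.3% of all tested genes and with pIpC above PBS for 30.5%.

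In the other P450 families, Cyp11a1, the enzyme that begins steroid synthesis from cholesterol, had no read in PBS and 53.9, 69.5 and 70.6 normalized counts in the pIpC libraries, at least 21.5-fold higher. Cyp1b1, an AhR target, had 5.19, 0 and 2.26 against 20.0, 19.4 and 14.5. Cyp4f18, a leukotriene hydroxylase of neutrophils, and Cyp4f16 of the same subfamily fell by 2.25 and 1.45 on the log2 scale, the former from 2314 ± 763 to 471 ± 71.5 (SD, n = 3 each).

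**Figure D4:**
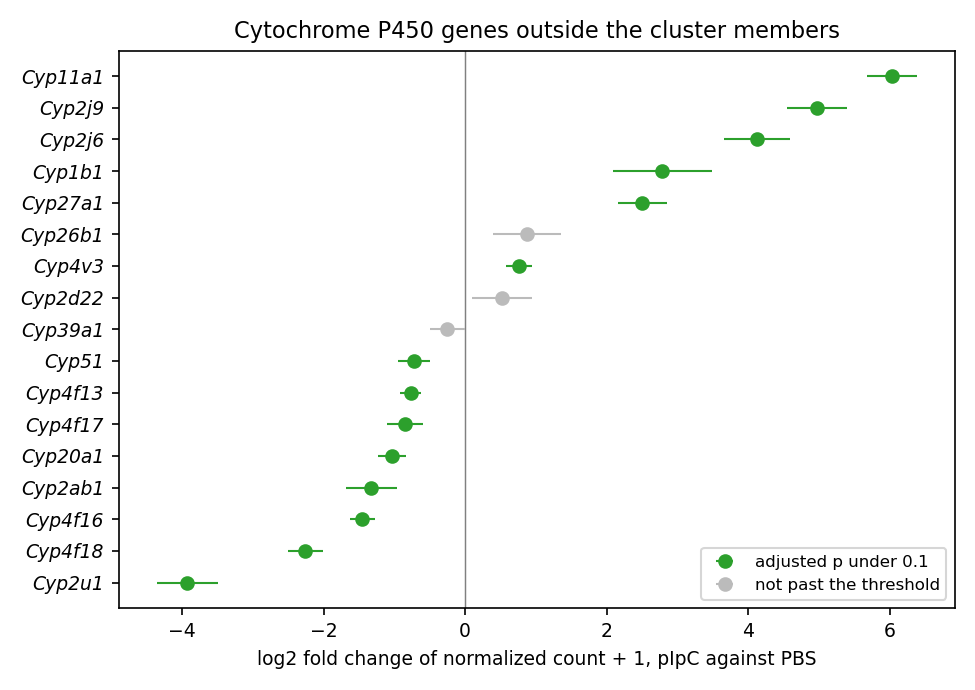
Log2 fold change of normalized count + 1, pIpC against PBS, of the 17 tested P450 genes outside the 10, each with its standard error as a bar; green points passed a limma adjusted p under 0.1. Of them 6 lie above 0 and 8 below it, from Cyp2u1 at -3.92 to Cyp11a1 at 6.03.

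The partners that P450 enzymes need were present in both groups. All 16 listed genes of electron supply and heme synthesis that were in the table could be tested, and 2 were higher and 4 lower in the pIpC libraries (37.5%, against 45.3% of all genes). Hmox1, which degrades heme, rose from 167 ± 17.6 to 1432 ± 392 normalized counts (log2 fold change 3.06 ± 0.21 SE, limma adjusted p = 9.57e-05), and Cyb5r4, a cytochrome b5 reductase, rose by 0.79 on that scale. Fdx1, the ferredoxin that serves mitochondrial P450 enzymes, fell by 1.32 and Alas1, the first enzyme of heme synthesis, by 0.98.

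Of 28 tested regulators of drug-metabolizing and Cyp2a genes, 12 were higher and 6 lower in the pIpC libraries (64.3%, against 45.3% of all genes, 25.0% higher and 20.4% lower). The highest were Hlf, a PAR-type factor, at 4.26 ± 0.27 SE on the log2 scale and Ahr, the dioxin receptor, at 2.92 ± 0.48, and the lowest Rxra, the common partner of nuclear receptors, at -2.04 ± 0.20 and Maff, a small MAF protein, at -1.69 ± 0.43. Of 22 tested NRF2 target genes, of which Cyp2a5 is known as one, 8 were higher and 4 lower (54.5%, against the same 45.3%). Ces2g, a carboxylesterase (log2 fold change 5.34), and Slc7a11, the cystine transporter (2.77), rose, while Srxn1, sulfiredoxin, fell by 2.70. Ftl1, ferritin light chain, passed narrowly at -0.95 (limma adjusted p = 0.095) and did not pass under 6 alternatives. Its normalized counts were 10157, 9868 and 26480 in PBS and 7482, 6739 and 7358 in the pIpC libraries. Without PBS replicate 3 the log2 fold change was smaller, at -0.48, and passed more clearly (limma adjusted p = 0.000353).

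Of 6 tested AhR target genes, 5 were higher and 1 did not pass (83.3% changed, against 45.3% of all genes). The highest were Cyp1b1 and Nfe2l2 at 2.79 and 1.71 on the log2 scale, and Nqo1 and Tiparp were at 1.03 and 0.62. Cyp1b1, with a mean of 2.48 in PBS, reached the filter through the pIpC libraries, so its call is no support. Among 22 tested conjugation enzymes, which couple the products of P450 enzymes to water-soluble groups, 2 were higher and 8 lower (45.5%, against 45.3% of all genes). Ephx1, the microsomal epoxide hydrolase, and Sult1a1, a sulfotransferase, rose by 1.83 and 1.25 on the log2 scale, and the glutathione transferases Gstk1 and Gstm2 fell by 3.23 and 2.40. Over these 5 lists, 27 of 90 genes were higher and 22 lower (54.4%, against 45.3%, with a median log2 fold change of 0.03). The count of 49 was 69 without PBS replicate 3.

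Several defining markers of the tissues for which the 10 genes are known had no read, while other genes on those lists were well detected. Of 16 hepatocyte markers, 10 were without a read in all 6 libraries, among them Alb, Apoa1, Ttr and Cyp2e1. The 2 that were tested, Hp (means of 31047 in PBS and 29819 in the pIpC libraries) and Trf (1539 and 1656), carried most of that list's sum of 22703 to 51376 in PBS and 29428 to 32889 in the pIpC libraries, and did not pass. Of 11 olfactory mucosa markers, 5 were without a read, among them Cnga2 and Ugt2a1, and Gnal and Adcy3 were higher and Krt18 (262 in PBS on average) lower in the pIpC libraries. Of 10 club cell markers, 4 were without a read, among them Scgb1a1, and Sftpb was higher. Of 10 keratinocyte markers, 6 were without a read, among them Krt5 and Krt14, and Ivl and Dsp (479 in PBS on average) were lower. The summed levels in PBS and in the pIpC libraries were 371 to 575 and 417 to 479 for the olfactory list, 82.0 to 129 and 121 to 154 for the club cell list, and 363 to 725 and 200 to 228 for the keratinocyte list.

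Hoxa9 and Hoxa10, which MLL-AF9 cells express strongly, fell by 4.32 and 6.38 on the log2 scale in the pIpC libraries, while Mpo and Lyz2, genes of maturing myeloid cells, rose by 4.74 and 4.04. Of the 14 markers of leukocytes and myeloid leukemia, 6 were higher and 4 lower (71.4% changed). Over all genes tested, 25.0% were higher and 20.4% lower, 45.3% in all. All 10 erythroid, all 10 B cell and all 7 tested T and NK cell markers were higher there, although the cells carried GFP by the labels. The summed level of the erythroid list was 23.4 to 38.5 normalized counts in PBS and 4538 to 6649 in the pIpC libraries, that of the B cell list 137 to 304 and 1430 to 2741, and that of the T and NK cell list 188 to 328 and 4082 to 4650. Of 11 tested macrophage and stromal markers, 8 were higher and 2 lower, with a median log2 fold change of 3.60. Their list's sums were 10441 to 14769 and 6757 to 8816. The lower sum in the pIpC libraries was carried by the 2 lower genes, Vcam1 (means of 8421 in PBS and 4444) and Adgre1 (4307 and 310). Of the leukocyte and leukemia markers 4, and of the macrophage and stromal markers 1, did not pass. The other tested markers of these lists moved with the loss of Cyp2a5 and Cyp2a4 reads and with the changes in the other lists. Their part in these changes was not tested.

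The 5 genes whose profile over the 6 libraries was most like that of Cyp2a5, by the root mean square difference of log2(normalized count + 1) after centring each gene on its own mean, were Xlr (0.92), Ptprt (1.26), Gm14599 (1.31), Hpgd (1.48) and Col6a4 (1.78), of 15019 genes compared. Cyp2a4 came at place 9. As a description, 215 of those genes had a Pearson r of at least 0.99 with Cyp2a5, and all values share 6 libraries and one difference between groups.

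Xlr, a lymphocyte-regulated gene of the X chromosome, had 2600, 2358 and 4238 normalized counts in PBS and 0, 0 and 2.90 in the pIpC libraries. Ptprt, a receptor tyrosine phosphatase, had 3407, 2905 and 955 against 0, 1.02 and 0, and Hpgd, which inactivates prostaglandins, 32736, 31600 and 34495 against 37.9, 51.1 and 67.7. PBS replicate 3 was the highest PBS library for Xlr, the pseudogene Gm14599 and Hpgd, as for Cyp2a5, and the lowest for Ptprt and for Col6a4, a collagen chain. Gm14599 had 546, 497 and 1411 against 0 in all 3 pIpC libraries.

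**Figure D5:**
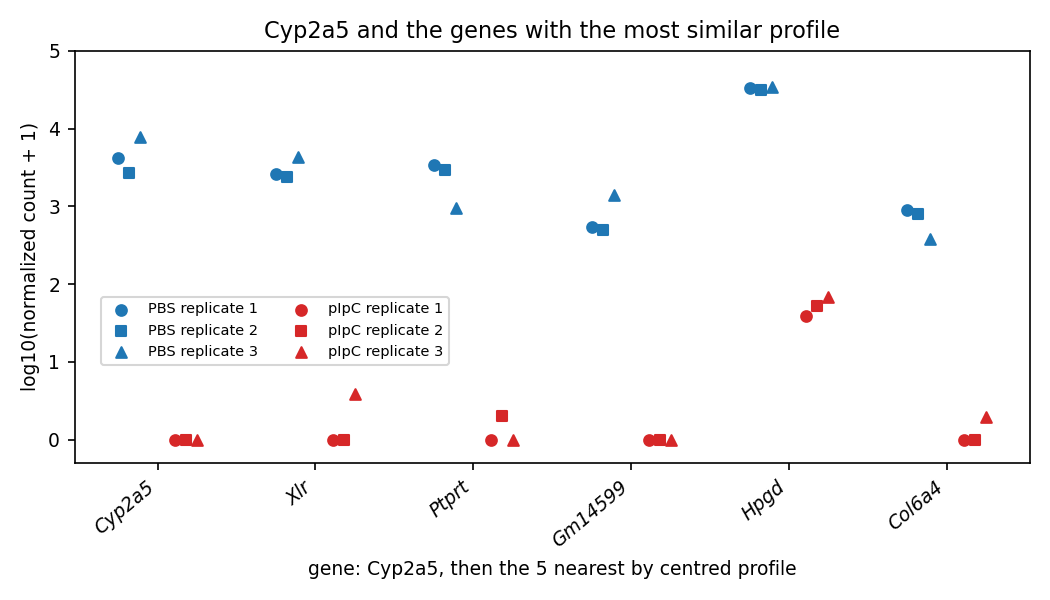
Normalized counts, as log10(normalized count + 1), of Cyp2a5 and the 5 genes with the most similar centred profile in each library, with PBS in blue, pIpC in red and a marker shape per replicate. All 6 genes are high in the 3 PBS libraries, and Hpgd alone has more than 3 reads in any pIpC library.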

How the data were processed

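The authors deposited one table of normalized gene counts, a signal in which reads are divided by one size factor per library. The study's methods give STAR and RSEM, run through nf-core/rnaseq, on mm10, whereas the submitters' processing notes name HISAT2 2.2.1, featureCounts and edgeR on GRCm38, and which of these made the table could not be settled. The methods also describe stranded libraries of c-Kit+ cells where the labels give unstranded ones of GFP+ cells. Every library's nonzero values (100%, within 0.01) were multiples of its smallest value, taken as 1 read, so reads were recovered by division. Symbols, positions and exon lengths came from GENCODE M21 on GRCm38.

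Genes with a mean of at least 10 normalized counts were tested with limma 3.58.1 (R 4.3.3, intensity trend) on log2(normalized count + 1), which understates the change of low genes, without a replicate block, at a Benjamini-Hochberg adjusted p under 0.1 over all 15020 genes. The code was tested on simulated data. Alternatives were pseudocounts of 0.1 and 10, no filter or a mean of 50, quantile normalization, edgeR 4.0.16 and DESeq2 1.42.0 on recovered reads, a replicate block, each library left out, a threshold of 0.05, and windows of 250 kb and 1 Mb. Sequences were aligned with Biopython 1.88.

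The members and lists were chosen with earlier results of these data known. Named were the 10 genes, Brd9, the 5 genes most like Cyp2a5, the nearest tested gene on each side, and, of each list, all genes past the threshold where there were at most 4 and otherwise the 2 highest and 2 lowest; the lists of macrophages, lymphocytes and erythroid cells are given by counts. Markers without reads, Vcam1, Adgre1, Gm4613, Egln2, Cyp2d22 and the low Cyp2b genes were chosen after their values were seen.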

Additional observations from a re-analysis of the deposited data

How the results depend on the processing

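The log2 difference of Cyp2a5, -12.11 with a pseudocount of 1, depended on how 0 is handled: it was -15.43 with a pseudocount of 0.1, -8.79 with 10, -15.27 by edgeR and -14.71 by DESeq2, and ranged from -12.48 to -11.70 with each library left out, so the bound from the 3-read limit is the value to use. The 19 changed flanking genes became 11 to 24 with a library left out, and 15 of 22 (2 higher, 13 lower) within 250 kb, or 68.2% against 45.3% of all genes. Leaving out genes with at most 3 reads in each library of one group, chosen after seeing the data, gave 18 flanking and 11 P450 genes. The 11 still included Cyp2j6, Cyp1b1 and Cyp2ab1, which reached the filter through their higher group only. The 14 changed P450 genes became 8 of 9 at a mean of at least 50, where fewer genes were tested, and 12 to 15 with a library left out. The 49 partner and regulator genes became 35 to 69, and the 6808 genes changed over all became 4650 to 9783, the highest without PBS replicate 3 in both. Quantile normalization turned the split over all genes from 3750 higher and 3058 lower to 3244 higher and 4078 lower. With a library left out, Rnf170-ps ranged from -0.44 to 0.0087, above 0 only without PBS replicate 1. Ftl1 did not pass under 6 alternatives, Adcy3, Krt18 and Tiparp under 2 each, and Nqo1 and Sult1a1 under 1 each. Why these changed was not tested.

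Same-numbered libraries did not deviate together from their group means (correlations -0.117, 0.143 and 0.041 for replicates 1 to 3), so the numbers were not taken as pairs. With the replicate block, 6095 genes, 17 flanking genes, 14 P450 genes and 44 partner and regulator genes changed, and Cyp2a5 was at -12.11. At these depths a gene without a read can still have up to 3 reads per library.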

Other observations

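Of the 10255 genes with a mean of at least 100 normalized counts in the PBS libraries, 12 had no read in any pIpC library. Cyp2a5 had the highest PBS mean of these and Cyp2a4 the 4th highest, and the others were Gm14599, Npy5r, Frzb, AU017674, Capn9, Serpina11, Nog, Abcg8, Glra3 and Nell1, listed after their values were seen. They include a neuropeptide receptor (Npy5r), secreted antagonists of WNT and BMP signals (Frzb and Nog) and a sterol transporter (Abcg8). In the reverse direction, 28 genes had no read in PBS and a mean of at least 100 in the pIpC libraries. The number of all genes with such a pIpC mean is not given, so the directions cannot be compared as shares.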
